A study of Homo sapiens with 12 samples.

Results

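KMS-11/Cfz is a derivative of the human multiple myeloma line KMS-11 that was selected stepwise until it grew in 12 nM carfilzomib, a drug that blocks the proteasome irreversibly. The 3 samples of KMS-11/Cfz were compared with the 3 samples of parental KMS-11, which had never been selected in the drug, by the cell line given in their labels, so the comparison holds 6 of the 12 arrays of the series. KMS-11/Cfz had grown for 1 week without carfilzomib when its RNA was taken. Serum in the medium differs between the labels and the methods, so it is not given here. The serial numbers in the sample titles run group by group, and any effect of that order cannot be told apart from the groups. KMS-11 carries the t(4;14) translocation of myeloma, and nothing states that KMS-11/Cfz is a single clone or that its replicates were cultured apart. The p-values therefore describe the spread among these arrays, which may be technical. The other 6 arrays are those of KMS-34 and of KMS-34/Cfz, another myeloma line and its derivative selected stepwise to the same dose, profiled after the same time without drug. They serve here to estimate the spread and to show where a change in KMS-11/Cfz was not that of KMS-34/Cfz. Every gene named by at least 1 probe set of its own was compared, which gave 19775 genes from 41091 of the 54613 probe sets.

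Myeloma cells are transformed plasma cells and make antibody in large amounts. The antibody chains are folded in the endoplasmic reticulum (ER) by chaperones, and chains that do not fold are pulled back into the cytosol by the ATPase p97 and cut up by the proteasome. When degradation falls short, cells can turn to the unfolded protein response, to the ATF4 stress program that supplies amino acids, to the NRF2 program against oxidants and electrophiles, and to the lysosome, which receives its load by autophagy. The genes were therefore read by function, from the degradation machinery outwards to metabolism, signalling and the cell surface.

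The deposited values are RMA signals on the log2 scale from which the middle of each probe set had been taken away. They show how an array differs from the others and give no expression level, so a value is printed here relative to the mean of the 3 KMS-11 arrays, and a change is the mean of KMS-11/Cfz minus that of KMS-11. Between arrays, Pearson's r over all probe sets was 0.939 to 0.949 within KMS-11/Cfz, 0.904 to 0.937 within KMS-11, and 0.874 to 0.904 between them. Of 399 genes that differed by more than 2 on the log2 scale between parental KMS-11 and parental KMS-34, 398 lay nearer to KMS-11 in KMS-11/Cfz. MAF, which distinguishes KMS-11 among t(4;14) lines, was 0.79 higher in KMS-11 than in KMS-34 (SE 0.09, adjusted p = 2.9e-06). Of 16 markers of T and NK cells, 15 of monocytes and macrophages and 15 of stromal and endothelial cells, 0 passed the threshold in KMS-11/Cfz in either direction. In lists this short 0 calls says little, as only 1.63% of all genes were higher and 1.94% lower. The counts also depend on which genes were put in these lists. CD7, LCK and TRAT1 were placed in the list of proximal signalling in lymphocytes instead, and each was called lower. Of 9 erythroid markers 1 was lower, HBD, a globin chain, at -0.55 (adjusted p = 0.0057). In these bulk samples, fewer cells that express a gene and less RNA per cell cannot be told apart.

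KMS-11/Cfz differed from KMS-11 in 706 genes with an adjusted p under 0.05 (limma, Benjamini-Hochberg over 19775 genes), of which 322 were higher (1.63% of the genes tested) and 384 lower (1.94%). Most of these changes were small. The median size among the 706 was 0.40 on the log2 scale, 96 genes rose and 123 fell by at least 0.5, and only 10 rose and 12 fell by at least 1, that is 2-fold. The median change of all genes was 0.0025, and the median standard error (SE) of a change was 0.08. In each of the 706 genes the 3 KMS-11/Cfz arrays lay on 1 side of the 3 KMS-11 arrays, which was so for 26.8% of all genes. The calls depended on which arrays were fitted. With any 1 of the 6 arrays left out, 141 to 197 genes were called higher and 187 to 219 lower, and 122 and 153 of the genes reported here were called in all 6 such fits, whereas a fit of the 6 arrays alone called 649 and 725. Below, "held" says of a call that it remained in all 6 of the fits that left out 1 array, and where a named gene's call did not, the arrays that ended it are given.

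**Figure D1:**
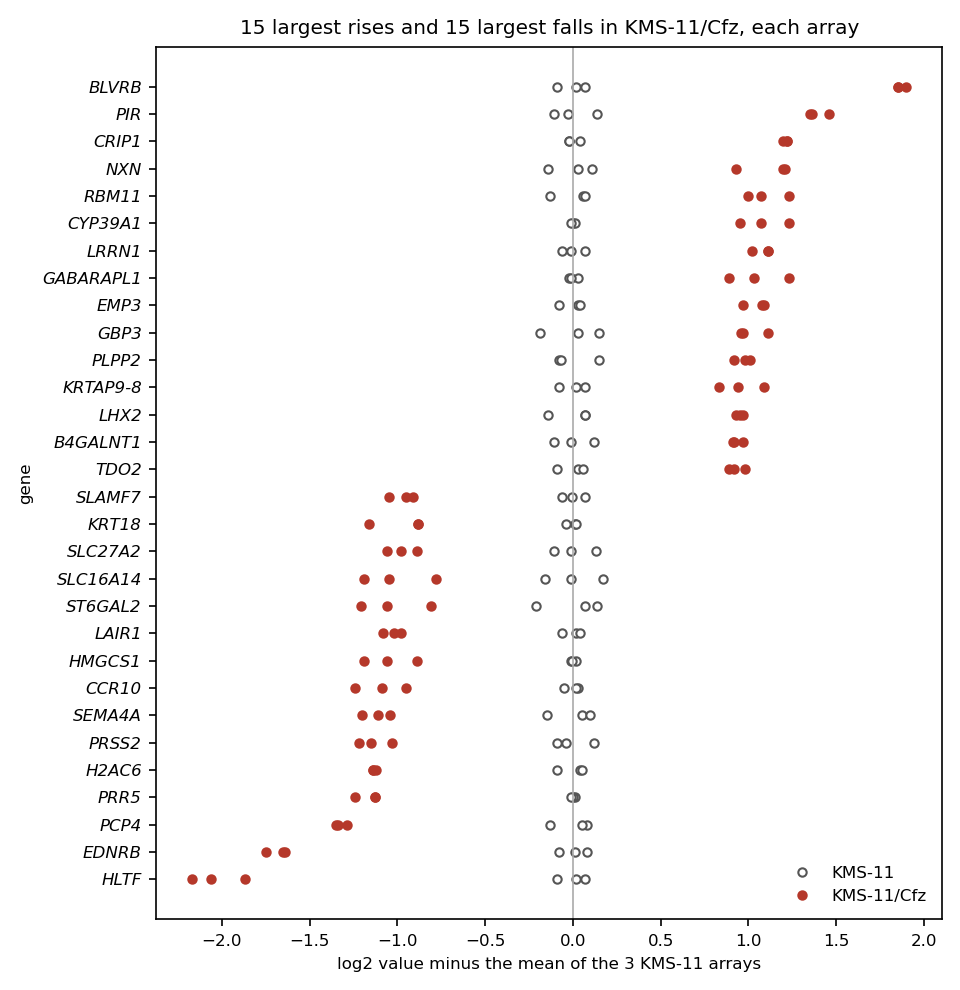
Each array's log2 value minus the mean of the 3 KMS-11 arrays (horizontal axis) for the 15 genes that rose most and the 15 that fell most past the threshold in KMS-11/Cfz, with filled points for KMS-11/Cfz and open points for KMS-11. In each of the 30 genes the 2 groups are apart, from BLVRB at 1.85 to 1.90 to HLTF at -2.17 to -1.87.

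The gene that rose most was BLVRB, a flavin reductase that also reduces biliverdin, the product of heme breakdown. Its 3 KMS-11/Cfz arrays stood at 1.85, 1.90 and 1.85, against -0.09, 0.02 and 0.07 in KMS-11, a 3.66-fold rise (log2 1.87, SE 0.08, adjusted p = 6.9e-08). PIR, an iron-binding nuclear protein known as an NRF2 target, came next at 1.46, 1.35 and 1.36 against -0.03, 0.14 and -0.11 (2.62-fold, adjusted p = 5.2e-07). Both had little spread within either group. CRIP1, a small LIM domain protein, stood at 1.22, 1.20 and 1.22 against -0.02, -0.02 and 0.04 (2.32-fold, adjusted p = 7.7e-06). GABARAPL1, a ubiquitin-like protein of the autophagosome membrane, stood at 1.03, 1.23 and 0.89 against 0.03, -0.02 and -0.01 (2.07-fold, adjusted p = 5.7e-05). The other 11 of the 15 largest rises lay between 0.93 and 1.11. They include NXN, a thioredoxin-like oxidoreductase, at 1.11 (adjusted p = 5.9e-04), CYP39A1, an oxysterol hydroxylase, at 1.08 (adjusted p = 1.0e-05), and TDO2, which opens the ring of tryptophan, at 0.93 (adjusted p = 6.5e-06). They also include LHX2, a LIM homeobox factor, at 0.95 (adjusted p = 2.1e-05), B4GALNT1, which builds complex gangliosides, at 0.93 (adjusted p = 6.3e-06), and RBM11, LRRN1, EMP3, GBP3, PLPP2 and KRTAP9-8. TDO2 rests on 2 probe sets that differ, with changes of 1.53 (adjusted p = 1.8e-06) and 0.33 (adjusted p = 0.41). Tested as single probe sets, 1.04% of the 41091 were higher and 1.37% lower.

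The largest fall was that of HLTF, a DNA translocase and ubiquitin ligase that acts at stalled replication forks. Its arrays stood at -2.17, -1.87 and -2.06 against 0.07, 0.02 and -0.09, 4.09-fold lower (log2 -2.03, SE 0.09, adjusted p = 6.9e-08), from 1 probe set. SHPRH, the other human ligase of this kind, had a change of 0.01 (adjusted p = 0.99). EDNRB, a receptor of endothelins, stood at -1.64, -1.65 and -1.75 against 0.01, 0.08 and -0.08 (3.20-fold lower, adjusted p = 7.0e-08), and its 3 probe sets lay between -1.93 and -1.47. PCP4, a calmodulin regulator, was 2.51-fold lower at -1.29, -1.35 and -1.34 against 0.08, 0.05 and -0.13 (adjusted p = 3.8e-07). PRR5, a subunit of the kinase complex mTORC2, was 2.24-fold lower at -1.24, -1.13 and -1.13 against 0.01, 0.0031 and -0.01 (adjusted p = 7.7e-06), while the mTORC2 subunits RICTOR and MAPKAP1 had changes of 0.01 and 0.04 (adjusted p = 0.99 and 0.92). The other 11 of the 15 largest falls lay between -1.13 and -0.97. They are H2AC6, PRSS2, SEMA4A, CCR10, HMGCS1, LAIR1, ST6GAL2, SLC16A14, SLC27A2, KRT18 and SLAMF7, and several return below with their groups. The probes of PRSS2 can share sequence with other trypsinogen genes, so its fall at -1.13 (adjusted p = 3.5e-06) is uncertain as to the gene. All 30 calls held.

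**Figure D2:**
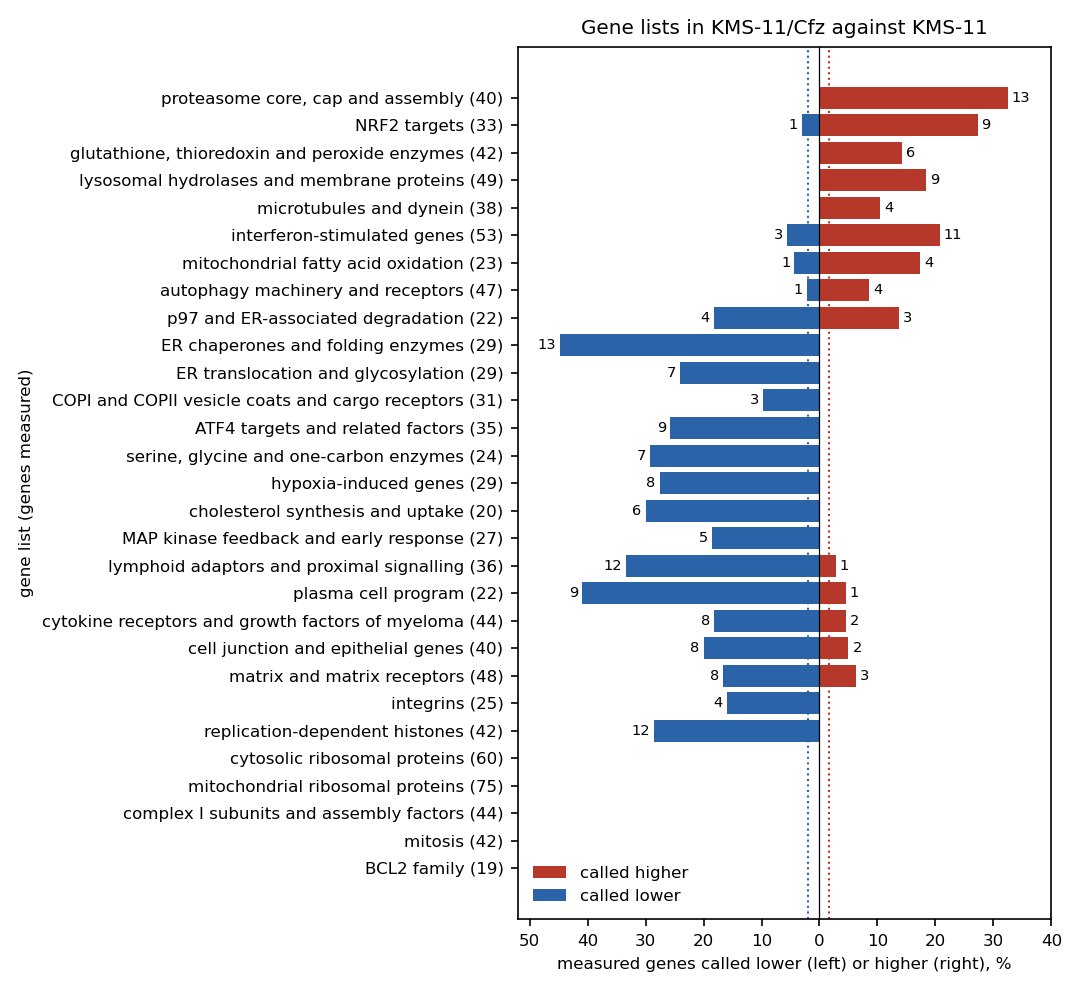
Share of the measured genes of each list that were called lower (bars to the left) or higher (bars to the right) in KMS-11/Cfz, in percent, with the number of genes at the bars and the number measured in brackets. Dotted lines mark the shares over all genes, 1.94% lower and 1.63% higher, and the bars of proteasome, NRF2 target and lysosome genes point wholly or mainly to the right while those of ER, ATF4, hypoxia, cholesterol and histone genes point to the left.

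Genes of protein degradation went in both directions. Of 40 proteasome genes, 13 rose and 0 fell, and 3 to 8 rose with 1 array left out. PSMC2, an ATPase of the cap, led them at 0.53 (adjusted p = 4.0e-04). The 3 subunits of the p97 complex that extracts ubiquitin-tagged proteins rose beside them. VCP, which encodes p97 itself, stood at 0.36, 0.33 and 0.33 against -0.05, 0.04 and 0.01 (1.27-fold, adjusted p = 0.0049), its cofactor UFD1 stood at 0.40, 0.32 and 0.37 against -0.03, 0.03 and 0.0049 (1.28-fold, adjusted p = 0.0055), and the other cofactor, NPLOC4, rose by 0.38 (adjusted p = 0.011). The calls of VCP and UFD1 held, and that of NPLOC4 ended without KMS-11/Cfz replicate 1 or 3 or KMS-11 replicate 3 (adjusted p = 0.057 to 0.058). On the ER side of the same route the named genes fell. SEL1L, the scaffold of the ER ligase HRD1, stood at -0.47, -0.47 and -0.44 against -0.07, 0.05 and 0.02 (adjusted p = 0.0015), SELENOS, which tethers p97 to the ER membrane, fell by 0.42 (adjusted p = 0.0064), and EDEM1, which marks misfolded glycoproteins, fell by 0.35 (adjusted p = 0.0081, and 0.053 without KMS-11/Cfz replicate 1). Over the 22 genes of p97 and ER-associated degradation, 3 rose and 4 fell, with a median of -0.07. Of 32 E2 ubiquitin enzymes 0 were called, and of 66 deubiquitinases 1 rose and 1 fell (1.52% each, against 1.63% and 1.94% of all genes). UCHL1, a ubiquitin hydrolase best known from neurons, was the one that rose, by 0.39 (adjusted p = 0.0025).

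Among the genes that fold secreted proteins, changes below 0 prevailed. Of 29 ER chaperones and folding enzymes, 13 fell and 0 rose, with a median of -0.28 against 0.0025 over all genes, and 28 of the 29 had a change below 0. With 1 array left out 7 to 8 of them fell. FKBP11, a prolyl isomerase of secretory cells, was lowest, at -0.77, -0.75 and -0.82 against 0.04, -0.02 and -0.02 (1.71-fold lower, adjusted p = 7.7e-06). ERO1A, the oxidase that makes disulfide bonds, stood at -0.52, -0.53 and -0.45 against 0.0030, 0.01 and -0.02 (adjusted p = 3.2e-04). CRELD2, PDIA4 and PPIB, which also act on folding proteins, fell by 0.49, 0.42 and 0.41 (adjusted p = 5.5e-04, 0.0022 and 9.3e-04), and these calls held. PDIA3 fell by 0.46 (adjusted p = 0.011), and its call ended without KMS-11/Cfz replicate 1 or 3 or KMS-11 replicate 1 (adjusted p = 0.054 to 0.065) and with the probe set of largest variance. The most familiar chaperones did not pass on the mean of their probe sets. HSPA5, also called BiP, had a change of -0.20 (adjusted p = 0.08), HSP90B1 one of -0.28 (adjusted p = 0.2) and CALR one of -0.16 (adjusted p = 0.32), though in each the KMS-11/Cfz arrays lay below those of KMS-11.

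The lists of the steps before and after folding also held falls and no rises. Of 29 genes of ER translocation and glycosylation, 7 fell and 0 rose (2 to 3 fell with 1 array left out), with a median of -0.15 and 28 of 29 below 0, and of 31 genes of COPI and COPII vesicles 3 fell (0 to 2) and 0 rose, with a median of -0.10. SSR1 and SSR3, subunits of the translocon-associated complex, fell by 0.32 and 0.38 (adjusted p = 0.0088 and 0.0022). The call of SSR3 rested on its probe sets marked _s_at, as the plain _at probe set gave -0.25 (adjusted p = 0.24). Among the sensors and factors of the unfolded protein response, 3 of 14 fell (2 to 3 with 1 array left out) and 0 rose. CREB3L4 fell by 0.54 (adjusted p = 0.0042) and ERN1, which encodes the sensor IRE1, by 0.33 (adjusted p = 0.0049), whereas XBP1, the factor that IRE1 splices, had a change of -0.04 (adjusted p = 0.92) and ATF6 one of 0.07 (adjusted p = 0.8). Of the 3 probe sets of ERN1, 1 showed no fall (0.02, adjusted p = 0.98). Of 22 cytosolic heat shock genes 1 was called, the small chaperone HSPB1, at 0.37 (adjusted p = 0.0048).

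NRF2 is the factor that switches on many genes against oxidants and electrophiles, and of 33 of its known targets 9 rose and 1 fell, with a median of 0.14 (6 to 7 rose with 1 array left out). After PIR, the largest rise was that of TALDO1, transaldolase of the pentose phosphate pathway, at 0.68, 0.66 and 0.64 against -0.04, 0.04 and -0.0015 (1.58-fold, adjusted p = 2.7e-05). SRXN1, which restores peroxiredoxins, rose by 0.49 (adjusted p = 0.0013), and GCLM, the modifier subunit of the enzyme that starts glutathione synthesis, by 0.51 (adjusted p = 0.008). NQO1, a quinone reductase, rose by 0.48 (adjusted p = 0.0043), and SQSTM1, the autophagy receptor p62, by 0.40 (adjusted p = 0.0043). Of the 5 probe sets of SQSTM1, 3 passed at 0.55 to 0.72, and the others stood at 0.06 and -0.03 (adjusted p = 0.88 and 0.97). The calls of GCLM and NQO1 ended with the probe set of largest variance (adjusted p = 0.059 and 0.075). OSGIN1 rose by 0.58 (adjusted p = 0.015), a call that ended without KMS-11/Cfz replicate 1 or 2, or without replicate 1 or 3 of KMS-11 (adjusted p = 0.062 to 0.072). IDH1, the cytosolic isocitrate dehydrogenase, fell by 0.33 (adjusted p = 0.0031). Other well-known targets did not pass, among them HMOX1, heme oxygenase, at 0.24 (adjusted p = 0.24), TXNRD1 at 0.10 (adjusted p = 0.7), GCLC at 0.10 (adjusted p = 0.65) and SLC7A11 at -0.13 (adjusted p = 0.48). NFE2L2, which encodes NRF2, had a change of 0.11 (adjusted p = 0.5). The wider list of glutathione, thioredoxin and peroxide enzymes had 6 of 42 higher (1 to 2 with 1 array left out) and 0 lower, with a median of 0.04. In the list of heme and iron handling BLVRB was the only gene of 26 to pass, and BLVRA, the other biliverdin reductase, had a change of 0.05 (adjusted p = 0.85).

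Of 49 hydrolases and membrane proteins of the lysosome, 9 rose and 0 fell, with a median of 0.07, and 7 to 8 rose with 1 array left out. GLA, which cleaves galactose from glycolipids, stood at 0.66, 0.59 and 0.63 against -0.02, 0.04 and -0.02 (1.54-fold, adjusted p = 2.2e-04). CTSD, the aspartic protease cathepsin D, stood at 0.49, 0.60 and 0.60 against -0.02, -0.01 and 0.03 (adjusted p = 8.1e-04). MAN2B1, GAA, PSAP and CTSB, which act on mannose glycans, glycogen, sphingolipids and proteins, rose by 0.53, 0.50, 0.49 and 0.47 (adjusted p = 0.0093, 0.0018, 4.5e-04 and 0.0013). All of these calls held. TFEB and TFE3, factors that drive lysosomal genes, had changes of 0.11 and 0.02 (adjusted p = 0.49 and 0.95), and of 21 subunits of the vacuolar proton pump 0 passed, although their median of 0.09 was no lower than that of the hydrolases. In the autophagy list 4 of 47 rose and 1 fell (2 to 3 and 1 with 1 array left out). The fall was that of WIPI1, which binds the lipid of forming autophagosomes, by 0.65 (adjusted p = 2.2e-04). GABARAPL1 was among the rises, and so was its relative MAP1LC3B, at 0.28 (adjusted p = 0.015), a call that held only without KMS-11 replicate 1 and ended in the 5 other fits with 1 array left out (adjusted p = 0.06 to 0.079). The relatives GABARAP, GABARAPL2 and MAP1LC3A had changes of 0.16, 0.06 and 0.02 (adjusted p = 0.27, 0.81 and 0.96).

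ATF4 is the factor that cells make when amino acids run short or the ER is stressed, and of 35 of its targets and related factors 9 fell and 0 rose, with a median of -0.13 and 30 of 35 below 0 (4 to 8 fell with 1 array left out). Several of the 9 were enzymes of serine, glycine and one-carbon metabolism, a list of its own in which 7 of 24 fell and 0 rose (4 to 5). CBS, which joins serine to homocysteine, stood at -0.80, -0.70 and -0.71 against -0.15, 0.06 and 0.10 (1.67-fold lower, adjusted p = 1.2e-04). PHGDH, the entry to serine synthesis, stood at -0.92, -0.53 and -0.64 against 0.0049, 0.14 and -0.14 (1.62-fold lower, adjusted p = 0.0012), but PSAT1 and PSPH, the following steps, had changes of -0.08 each (adjusted p = 0.72 and 0.88). SLC1A4, a carrier of serine and alanine, fell by 0.61 (adjusted p = 8.0e-05), and DDIT4, an inhibitor of mTORC1, stood at -1.03, -0.60 and -0.55 against -0.13, 0.02 and 0.11 (adjusted p = 0.0016), its first array lowest. GLDC, which cleaves glycine, fell by 0.74 (adjusted p = 0.012), and that call ended without KMS-11/Cfz replicate 1 or 2 or KMS-11 replicate 2 (adjusted p = 0.054 to 0.06). CBS and SLC1A4 each have a plain _at probe set that did not pass (-0.18, adjusted p = 0.6, and -0.31, adjusted p = 0.17). ATF4 itself had a change of -0.12 (adjusted p = 0.41), DDIT3, which encodes CHOP, one of -0.04 (adjusted p = 0.91), and ASNS one of -0.11 (adjusted p = 0.55). The cytosolic aminoacyl-tRNA synthetases, many of which ATF4 also drives, had 0 of 18 called.

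In the other myeloma line the ATF4 genes that passed rose, and the called genes of the lines were not all the same ones. In KMS-34/Cfz 13 of the 35 ATF4 genes were higher and 0 lower, with a median of 0.14, against 5.40% of all genes higher and 4.69% lower there. The change in KMS-11/Cfz differed from that in KMS-34/Cfz in 16 of the 35 by the interaction term of the same fit, which passed in 6.44% of all genes. SESN2, a sensor of leucine, had a change of -0.30 here (adjusted p = 0.11) but one of 0.58 there (adjusted p = 0.0013, and interaction adjusted p = 0.0013). PHGDH, at -0.70 against 0.03, also differed (interaction adjusted p = 0.0074).

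**Figure D3:**
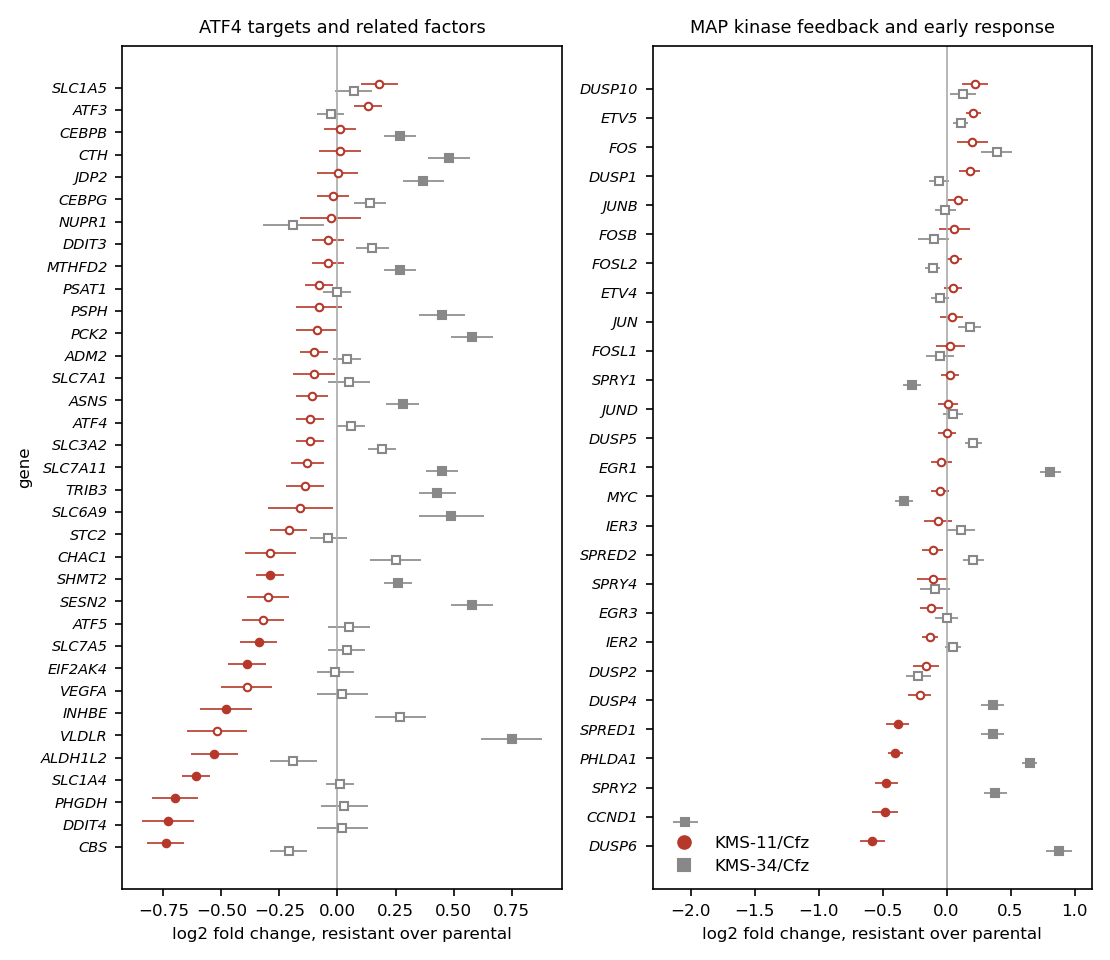
Log2 fold change of resistant over parental cells with its standard error for 35 ATF4 targets and related factors (left) and 27 genes of MAP kinase feedback and early response (right), with circles for KMS-11/Cfz and squares for KMS-34/Cfz, filled where the adjusted p was under 0.05. The filled circles lie left of 0 and the filled squares of the ATF4 list lie right of it, and DUSP6, PHLDA1, SPRY2 and SPRED1 lie on opposite sides in the 2 lines.

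Hypoxia-inducible factors bind the core motif ACGTG, and of 29 known hypoxia-induced genes 8 fell and 0 rose, with a median of -0.28 and 26 of 29 below 0 (5 to 8 fell with 1 array left out). Promoters of RefSeq (GRCh38.p14, 250 bases before to 50 after each gene's start) were at hand for all 8, and each held ACGTG on one strand or the other, against 10 of the 17 uncalled genes of the list that had a promoter there and 24.9% of the 27305 genes with a promoter in the table. ACGTG is also part of the E-box CACGTG, and a match describes the letters only. The stretches of 30 bases around the match nearest to the start are given only to show where the motif lies in each of these 8 genes. They are written 5′ to 3′ on the strand of the gene, with that nearest match (ACGTG, or CACGT where it lies on the opposite strand) in capitals. The stretch of PDK1 also holds another match, in lower case, 12 bases before the start.
EGLN1, chr1:231422288-231422317, minus strand: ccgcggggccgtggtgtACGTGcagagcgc
PDK1, chr2:172556060-172556089, plus strand: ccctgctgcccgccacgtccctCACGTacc
BHLHE40, chr3:4979276-4979305, plus strand: cacagggtagaaCACGTagctccaacccac
GBE1, chr3:81761740-81761769, minus strand: tacccgctccggACGTGcgtcccggcatca
FAM162A, chr3:122384086-122384115, plus strand: cagcgcgtggcgCACGTcctacacgccccg
DDIT4, chr10:72273787-72273816, plus strand: agaacgttgcttACGTGcgcccggagtcca
ERO1A, chr14:52695655-52695684, minus strand: cgggcgccgcggCACGTccacaggctgggt
ALDOC, chr17:28576906-28576935, minus strand: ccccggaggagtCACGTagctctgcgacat
DDIT4 is described above. GBE1, the branching enzyme of glycogen, stood at -0.59, -0.52 and -0.58 against -0.11, 0.10 and 0.01 (1.48-fold lower, adjusted p = 3.4e-04). PDK1, which holds pyruvate back from mitochondria, fell by 0.44 (adjusted p = 0.0031), EGLN1, the oxygen-sensing prolyl hydroxylase, by 0.44 (adjusted p = 0.0091), and FAM162A, a mitochondrial protein, by 0.35 (adjusted p = 0.0079). The call of EGLN1 ended without KMS-11/Cfz replicate 1 (adjusted p = 0.06), and those of EGLN1 and FAM162A ended with the plain _at probe sets (adjusted p = 0.17 and 0.065). ALDOC, an aldolase, and BHLHE40, a repressor of transcription, fell by 0.59 each (adjusted p = 0.018 and 0.023). These 2 calls were less firm. That of ALDOC ended without KMS-11/Cfz replicate 1, or without replicate 2 or 3 of KMS-11 (adjusted p = 0.07 to 0.084), and that of BHLHE40 ended without KMS-11/Cfz replicate 1 or any 1 of the KMS-11 arrays (adjusted p = 0.053 to 0.11) and with the probe set of largest variance (adjusted p = 0.12). VEGFA, BNIP3 and SLC2A1, also known hypoxia genes, had changes of -0.39, -0.57 and -0.26 (adjusted p = 0.09, 0.075 and 0.057), with KMS-11/Cfz below KMS-11 on all arrays. HIF1A had a change of -0.18 (adjusted p = 0.27). Other motifs were sought on both strands in the same way. The counts that follow cover the genes of a list with a promoter in the table, which are 25 of 33 NRF2 targets, 28 of 35 ATF4 genes, 18 of 20 cholesterol genes and 21 of 25 KLF and SP genes. TGACNNNGC, the core of the antioxidant response element, was in the promoters of 3 of 9 called NRF2 targets, GCLM, IDH1 and PIR, and of 7 of 16 that were not called, against 16.1% of all genes. TGATGNAA, a composite site for ATF4, was in 1 of 6 called ATF4 genes, SLC1A4, in 8 of 22 that were not called and in 4.46% of all genes. TCACNCCAC, a sterol response element, was in 0 of 5 called cholesterol genes, in 1 of 13 that were not called and in 1.39% of all genes. GGGNGTGG, a site for KLF factors, was sought in the promoters of the KLF and SP genes themselves, not in those of their targets. It was in 0 of 2 called KLF and SP genes, in 8 of 19 that were not called and in 19.9% of all genes.

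Of 20 genes of cholesterol synthesis and uptake, 6 fell and 0 rose, with a median of -0.17 (4 to 5 fell with 1 array left out). HMGCS1, which starts the mevalonate pathway, stood at -1.06, -0.89 and -1.19 against -0.01, 0.02 and -0.0046 (2.07-fold lower, adjusted p = 5.2e-05). STARD4, a sterol carrier, and SQLE, squalene epoxidase, fell by 0.47 and 0.39 (adjusted p = 3.6e-04 and 0.0046). SCD, the stearoyl desaturase, fell by 0.42 (adjusted p = 0.0049). SREBF1 and SREBF2, the factors behind these genes, had changes of 0.13 and -0.08 (adjusted p = 0.44 and 0.74). On the side of breakdown, 4 of 23 genes of mitochondrial fatty acid oxidation rose and 1 fell (2 to 3 rose with 1 array left out). ACADVL, which starts the oxidation of very long chains, stood at 0.82, 0.79 and 0.76 against -0.0003, 0.02 and -0.02 (1.73-fold, adjusted p = 5.3e-05), and ACOT13, a thioesterase, rose by 0.49 (adjusted p = 0.0043). ACSM3 fell by 0.52 (adjusted p = 0.0034). SLC27A2, which imports and activates very long chain fatty acids, stood at -1.06, -0.89 and -0.98 against -0.11, -0.01 and 0.13 (adjusted p = 2.1e-05). CPT1A and CPT2, the carnitine shuttle, had changes of -0.14 and -0.03 (adjusted p = 0.35 and 0.96), and the sugar enzyme FBP1, of gluconeogenesis, rose by 0.57 (adjusted p = 5.5e-04).

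Among signalling genes, 5 of 27 of MAP kinase feedback and early response fell and 0 rose (2 to 3 fell with 1 array left out), with a median of -0.04. DUSP6, a phosphatase that switches ERK off and is itself induced by it, stood at -0.52, -0.60 and -0.63 against 0.04, 0.12 and -0.16 (1.49-fold lower, adjusted p = 0.0048). PHLDA1 stood at -0.42, -0.39 and -0.40 against 0.03, -0.02 and -0.01 (adjusted p = 0.0022). SPRY2 and SPRED1, inhibitors of the pathway, fell by 0.47 and 0.38 (adjusted p = 0.013 and 0.037), but SPRY2 fell short without KMS-11/Cfz replicate 1 or 2, or without replicate 1 or 3 of KMS-11 (adjusted p = 0.052 to 0.065) and SPRED1 without any 1 of the 6 arrays (adjusted p = 0.087 to 0.15). In KMS-34/Cfz all 4 rose, DUSP6 by 0.88 (adjusted p = 9.1e-05), PHLDA1 by 0.65 (adjusted p = 2.3e-05), SPRY2 by 0.38 (adjusted p = 0.017) and SPRED1 by 0.36 (adjusted p = 0.022), and the difference between the lines passed in each (interaction adjusted p = 4.2e-05, 1.3e-05, 0.0016 and 0.0038). CCND1 fell by 0.48 (adjusted p = 0.016), a call lost on omitting KMS-11/Cfz replicate 1 or 3 or either of KMS-11 replicates 1 and 2 (adjusted p = 0.058 to 0.084). In KMS-34/Cfz it fell by 2.04 (adjusted p = 5.9e-08). The 2 probe sets of CCND1 gave differing changes here, -0.93 (adjusted p = 4.3e-04) and -0.03 (adjusted p = 0.98). EGR1 and MYC had changes of -0.04 and -0.05 in KMS-11/Cfz (adjusted p = 0.93 and 0.88).

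Of 36 adaptors and enzymes of proximal signalling in lymphocytes, 12 fell and 1 rose, with a median of -0.11 (9 to 11 fell with 1 array left out). LAIR1, an inhibitory receptor, stood at -1.08, -1.02 and -0.98 against -0.06, 0.02 and 0.04 (2.04-fold lower, adjusted p = 4.6e-06). GRB14, an adaptor of receptor kinases, fell by 0.87 (adjusted p = 2.4e-04). CD7 stood at -0.70, -0.64 and -0.54 against -0.09, 0.20 and -0.10 (adjusted p = 0.0015), and LCK, a kinase of the Src family, stood at -0.43, -0.64 and -0.74 against 0.13, -0.06 and -0.07 (adjusted p = 0.0045). PTPRCAP, a partner of CD45, fell by 0.56 (adjusted p = 8.8e-04). TRAT1 fell by 0.95 (adjusted p = 0.0098), a call that ended without KMS-11/Cfz replicate 1 or KMS-11 replicate 1 (adjusted p = 0.052 and 0.056). Among 22 plasma cell genes, 9 fell and 1 rose (8 to 9 fell with 1 array left out), and CCR10, a chemokine receptor of plasma cells at mucosal surfaces, led at -1.09, -0.95 and -1.24 against -0.05, 0.03 and 0.02 (2.13-fold lower, adjusted p = 2.8e-04). SLAMF7, the surface antigen bound by elotuzumab, fell by 0.97 (adjusted p = 2.2e-05). The factors IRF4 and PRDM1, which hold the plasma cell state, had changes of -0.11 and -0.06 (adjusted p = 0.64 and 0.86), and SDC1, the plasma cell marker CD138, one of -0.15 (adjusted p = 0.22).

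Growth factors and their receptors fell more often than they rose, with 8 of 44 lower, 2 higher and a median of -0.08 (5 to 6 fell with 1 array left out). IL17RB stood at -0.84, -1.02 and -1.01 against -0.09, 0.04 and 0.05 (1.94-fold lower, adjusted p = 3.7e-05). IL32 fell by 0.77 (adjusted p = 0.0039), TGFA by 0.61 (adjusted p = 3.8e-04), PDGFA by 0.53 (adjusted p = 0.0013) and IGF1 by 0.51 (adjusted p = 3.7e-04), while IGFBP4, which binds IGF1, rose by 0.65 (adjusted p = 0.0031). PDGFA averages 2 probe sets that differ, at -1.09 (adjusted p = 3.7e-04) and 0.03 (adjusted p = 0.97), and the 3 probe sets of TGFA lay between -1.16 and -0.14. Of 15 known targets of MAF in myeloma, 4 fell and 0 rose (3 with 1 array left out), with PCP4 the lowest. CX3CR1, another of them, fell by 0.69 (adjusted p = 0.0014), whereas it rose by 0.65 in KMS-34/Cfz (adjusted p = 9.1e-04), and MAF itself had a change of -0.17 (adjusted p = 0.43). The 2 probe sets of CX3CR1 stood at -1.20 (adjusted p = 2.5e-04) and -0.17 (adjusted p = 0.59).

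At the cell surface, genes of junctions and epithelia fell in 8 of 40 cases and rose in 2 (5 to 7 and 2 with 1 array left out). KRT18, a keratin, fell by 0.97 (adjusted p = 1.4e-04), ESRP1, a splicing regulator of epithelia, by 0.66 (adjusted p = 0.0011), SPINT2, a protease inhibitor, by 0.58 (adjusted p = 0.0074), and TJP1, a scaffold of tight junctions, stood at -0.60, -0.65 and -0.56 against -0.04, 0.06 and -0.02 (adjusted p = 9.2e-05). The 2 that rose were EMP3, a small membrane protein, at 1.08, 0.97 and 1.09 against 0.03, 0.04 and -0.08 (2.06-fold, adjusted p = 3.5e-06), and SNAI2, a repressor of epithelial genes, by 0.78 (adjusted p = 0.0013). ESRP1 rests on probe sets at -1.04 (adjusted p = 0.0013) and -0.28 (adjusted p = 0.19). KRT8, the usual partner of KRT18, had a change of -0.07 (adjusted p = 0.86), and CDH1 one of 0.01 (adjusted p = 0.98). Of 25 integrins, 4 fell (2 to 3) and 0 rose. They include ITGA4, a chain of the receptor VLA-4 that binds myeloma cells to stroma, at -0.49 (adjusted p = 0.0016), while ITGB1, its partner chain, had a change of 0.02 (adjusted p = 0.95). Matrix genes went both ways, with 8 of 48 lower and 3 higher (5 to 7 and 2 to 3). RELN stood at -0.90, -0.85 and -1.03 against -0.08, 0.07 and 0.01 (adjusted p = 4.7e-06), XYLT1, which starts proteoglycan chains, fell by 0.81 (adjusted p = 3.1e-05), and PXDN, which cross-links collagen, by 0.78 (adjusted p = 6.2e-04), whereas EFEMP2 rose by 0.82 (adjusted p = 1.4e-04) and SDC4, a heparan sulfate proteoglycan, by 0.63 (adjusted p = 6.3e-05).

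Of 53 interferon-stimulated genes, 11 rose and 3 fell, with a median of 0.03 (8 to 10 rose with 1 array left out). GBP3, a guanylate-binding protein, stood at 0.96, 1.11 and 0.97 against 0.15, 0.03 and -0.19 (2.02-fold, adjusted p = 1.9e-04), DDX60, a helicase of antiviral defence, rose by 0.74 (adjusted p = 8.8e-04), NMI stood at 0.70, 0.71 and 0.72 against -0.02, 0.11 and -0.09 (adjusted p = 8.0e-05), IFIT3 rose by 0.62 (adjusted p = 0.0028) and IFI44 by 0.63 (adjusted p = 0.0011). The plain _at probe set of IFI44 gave 0.16 (adjusted p = 0.8). The classical members ISG15 and MX1 had changes of 0.33 and 0.30 (adjusted p = 0.13 and 0.14), OAS1 one of 0.08 (adjusted p = 0.84) and IRF7 one of -0.06 (adjusted p = 0.9). LY6E fell by 0.58 (adjusted p = 0.0034).

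Of 38 genes of microtubules and dynein, 4 rose and 0 fell, with a median of 0.12 and 33 of 38 above 0, and the same number rose in every fit with 1 array left out. They are DYNC1I1, an intermediate chain of dynein, at 0.81, 0.83 and 0.80 against -0.05, 0.01 and 0.04 (1.76-fold, adjusted p = 1.6e-05), KIF21A, a kinesin, at 0.73 (adjusted p = 0.0074), DCX, doublecortin, at 0.64 (adjusted p = 0.0016), and MAPT, tau, at 0.48 (adjusted p = 0.0016). The plain _at probe sets of MAPT gave 0.33 (adjusted p = 0.15). KIF21B, the closest relative of KIF21A, fell by 0.43 (adjusted p = 0.0017). SOX9, a factor of progenitor cells, stood at 0.83, 0.76 and 0.83 against 0.11, -0.12 and 0.01 (1.75-fold, adjusted p = 2.7e-05), the only one of 24 SOX genes to pass, and KCNS3, a potassium channel subunit, rose by 0.77 (adjusted p = 3.0e-05).

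Histone genes that cells express during DNA replication fell in 12 of 42 cases and rose in 0, with a median of -0.09, and the count was 12 to 13 in every fit with 1 array left out. H2AC6 stood at -1.14, -1.14 and -1.12 against 0.04, 0.05 and -0.09 (2.20-fold lower, adjusted p = 4.7e-06), H2BC21 fell by 0.94 (adjusted p = 1.7e-05), H2BC9 by 0.93 (adjusted p = 3.1e-04) and H1-2 by 0.89 (adjusted p = 3.2e-04). Genes of the same histone class have nearly identical coding sequences, so the share of each gene within a class is uncertain. The falls are those of array signal, and whether total histone RNA fell was not tested. Of 44 genes of DNA replication and 42 of mitosis, 1 and 0 passed, and MKI67 and PCNA had changes of -0.14 and 0.03 (adjusted p = 0.45 and 0.96). Of 34 keratin-associated proteins, 4 rose (2 to 4 with 1 array left out), all of them neighbours of the KRTAP9 group on chromosome 17, among them KRTAP9-8 at 0.83, 0.94 and 1.09 against -0.08, 0.02 and 0.07 (1.94-fold, adjusted p = 5.3e-05). These paralogs are close copies whose probes may read each other, and the calls of KRTAP9-3 and KRTAP9-4 each ended in 4 of the 6 fits with 1 array left out (adjusted p = 0.051 to 0.17).

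Several large families had 0 calls. Of 60 cytosolic ribosomal proteins, 75 mitochondrial ribosomal proteins, 44 subunits and assembly factors of complex I, 18 of cytochrome oxidase and 19 of ATP synthase, 0 were called, and their medians lay between -0.03 and -0.0006. The BCL2 family of survival and death genes had 0 of 19 called and changes from -0.26 to 0.15. With 1.63% of all genes higher and 1.94% lower, few calls would fall in any family of these sizes. Among 45 ABC transporters, 1 pseudogene, ABCA17P, passed, at 0.43 (adjusted p = 0.05), in a call that ended in 5 of the 6 fits with 1 array left out (adjusted p = 0.097 to 0.22), and ABCB1, the drug pump, had a change of -0.04 (adjusted p = 0.93). Zinc-finger genes with a ZNF symbol had 7 of 502 higher (1.39%) and 3 lower (0.598%).

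Read along the genome, the falls gathered on chromosome 15. Of its 612 genes 47 were lower, that is 7.68% against 1.76% of the 19163 other genes, and 4 were higher. The median change was -0.08, and 70.3% of the genes had a change below 0. Chromosome 13 came next with 15 of 401 lower (3.74%) and a median of -0.04 (4 to 7 lower with 1 array left out), and in the other chromosomes 0.33% to 2.59% of the genes were lower. The shift covered the whole length of chromosome 15. In 4 stretches of 153 genes each, from its start to its end, the medians were -0.07, -0.11, -0.07 and -0.06, and 11, 18, 8 and 10 genes were lower. Runs of 15 neighbouring genes were taken from each gene in turn, so they overlap and count the same stretch many times. Of the 598 runs along chromosome 15, 572 had a median below 0. Of the 100 lowest runs of the genome 84 lay there, although the chromosome holds 3.09% of all runs. Among runs that share no gene, the lowest lay on chromosome 6, with medians of -0.27 and -0.21. The lowest of these on chromosome 15 had a median of -0.19. With 1 array left out, 18 to 26 genes were lower and the median was -0.08 to -0.07. In KMS-34/Cfz the median of the same genes was 0.01, with 35 higher and 16 lower.

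**Figure D4:**
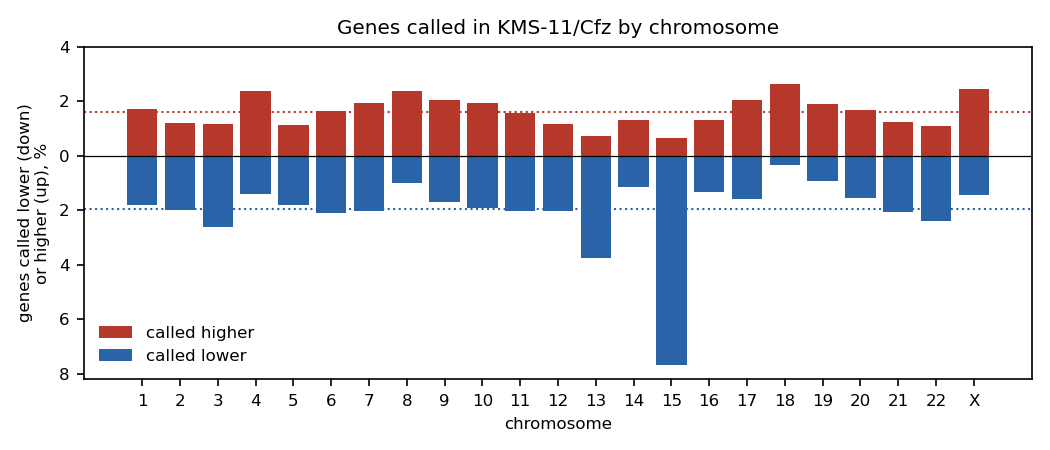
Share of the genes of each chromosome called higher (bars upwards) or lower (bars downwards) in KMS-11/Cfz, in percent, with dotted lines at the shares over all genes, 1.63% and 1.94%. The bar of chromosome 15 reaches 7.68% lower, and chromosome 13 follows at 3.74%.

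**Figure D5:**
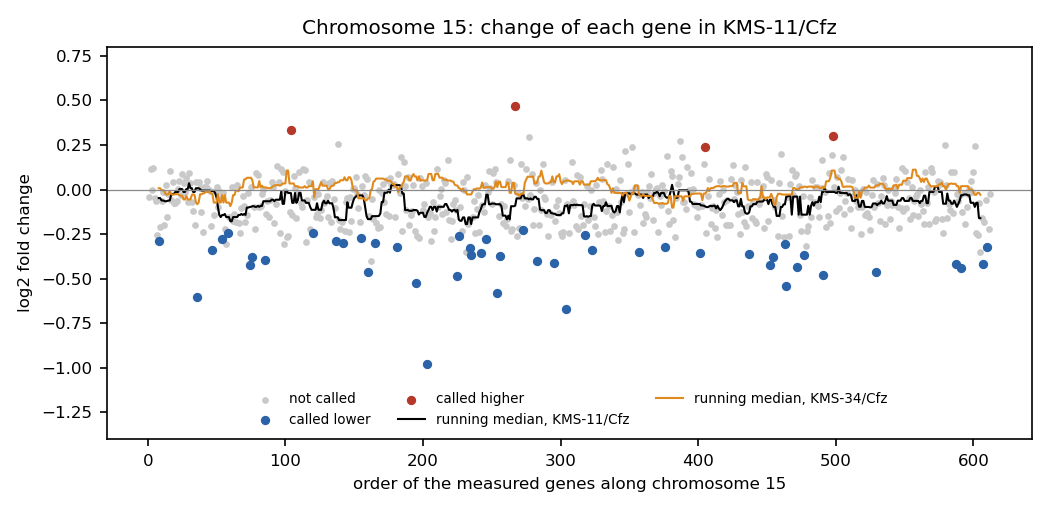
Log2 fold change of the 612 measured genes of chromosome 15 in KMS-11/Cfz, in their order along it, with coloured points for genes called lower or higher and lines for the running median of 15 neighbouring genes in each derivative. The line of KMS-11/Cfz lies below 0 over most of the length, in 572 of 598 overlapping runs, and the called genes are spread from end to end.

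The called genes of chromosome 15 have varied functions. The largest fall was that of SLC27A2, and ANKDD1A, TJP1 and ADAM10, the protease that sheds many surface proteins, changed by -0.67, -0.60 and -0.58. Besides TJP1, called members of the lists above that lie there are PDIA3 and PPIB of the ER chaperones, SELENOS of ER-associated degradation, EIF2AK4, the kinase GCN2 that acts ahead of ATF4, SPRED1, and IL16, a cytokine. IL16 fell by 0.37 (adjusted p = 0.034) and was called in none of the 6 fits with 1 array left out (adjusted p = 0.069 to 0.14) or with its plain _at probe set (-0.09, adjusted p = 0.93). EIF2AK4 fell by 0.39 (adjusted p = 0.013), a call that ended without KMS-11/Cfz replicate 1 or 3, or without replicate 1 or 2 of KMS-11 (adjusted p = 0.054 to 0.076), and its probe sets stood at -0.60 (adjusted p = 0.0056) and -0.18 (adjusted p = 0.4). Without these 2 chaperones, 11 of 27 ER chaperones remained lower, and chromosome 15 held none of the called hypoxia, cholesterol or histone genes. The 4 genes that rose were ANXA2, an annexin, at 0.47, GCHFR at 0.33, HDGFL3 at 0.30 and CYP1A2 at 0.24, of which ANXA2 held and the others were called in none of the 6 fits with 1 array left out (adjusted p = 0.051 to 0.22). The call of ANXA2 ended with the plain _at probe sets (0.25, adjusted p = 0.23) and that of ANKDD1A with the probe set of largest variance (-0.42, adjusted p = 0.1). Elsewhere, the lowest run was that of the histone cluster on chromosome 6 from H2BC4 to H4C8, with a median of -0.27 and 7 of 15 genes lower, and another stretch lay on chromosome 14 from TMX1 to FERMT2, with a median of -0.19 and 3 lower. The highest run was that on chromosome 17 from KRTAP4-9 to KRT33A, with a median of 0.18 and 5 of 15 genes higher.

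Of the 706 genes, 355 had a change that differed from that of KMS-34/Cfz by the interaction term, 166 of those that rose and 189 of those that fell. Of the genes that rose in KMS-11/Cfz, 57 also rose in KMS-34/Cfz (17.7% of the 322 here and 5.34% of those there) and 33 fell there. Of those that fell, 80 also fell in KMS-34/Cfz (20.8% here and 8.62% there) and 49 rose there. Over all genes, 5.40% rose and 4.69% fell in KMS-34/Cfz. SLAMF7 was among the falls in both (interaction adjusted p = 0.95), and NMI among the rises in both, at 0.71 and 0.68 (interaction adjusted p = 0.94). CRIP1, GABARAPL1, PRR5 and ACADVL changed in opposite directions, with values in KMS-34/Cfz of -0.77, -0.65, 0.80 and -0.35 (adjusted p = 1.6e-04, 0.001, 7.9e-05 and 0.0087). Several lists went the same way in KMS-34/Cfz. There 12 of 20 cholesterol genes fell and 1 rose, and 11 of 29 genes of ER translocation and glycosylation fell and 0 rose. Of 22 plasma cell genes 7 fell and 1 rose there, and of 53 interferon-stimulated genes 16 rose and 1 fell. Falls also outnumbered rises there in 42 replication-dependent histone genes (8 fell and 0 rose) and 29 hypoxia-induced genes (6 and 1). The same was so for 29 ER chaperones and folding enzymes (6 fell and 2 rose), while of 47 autophagy genes 12 rose and 1 fell. By contrast, 3 of 40 proteasome genes rose and 2 fell, and 2 of 33 NRF2 targets rose and 1 fell.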

How the data were processed

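RNA of 4 groups of 3 samples was measured on Affymetrix U133 Plus 2.0 arrays. The authors normalized the scans by RMA, as the labels name it without a version, and deposited log2 values, here centred on each probe set, for 54613 probe sets. Values so centred carry no level, so no filter on dim probe sets was possible. Probe sets were named by the platform annotation, and 41091 name 1 gene, 1801 several and 11721 none. A gene was the mean of its probe sets, and 227 genes had a called probe set but no call of the mean. All 12 arrays were fitted in 1 model with a mean per group (limma 3.58.1, R 4.3.3, lmFit and eBayes), two-sided, with Benjamini-Hochberg adjustment over 19775 genes and a threshold of 0.05. The methods of the study name no test for single genes. The scripts were tested on simulated data.

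The members, the 59 gene lists and the 49 families defined by symbol were chosen with earlier results of these data known. Lists are described by counts and medians, beside the same over all genes, with no test of a list. A count of 0 in a short list says little, because the shares over all genes were only 1.63% higher and 1.94% lower. Named genes are the 15 largest rises and falls, up to 6 called members of a list or family by size, members that mirror them, and the ends of chromosomal runs. EGLN1 and FAM162A, whose promoters are printed, and genes of chromosome 15 outside this rule were chosen after their values were seen. Gene order and promoters came from RefSeq (GRCh38.p14). Alternatives changed the arrays, scaling, variance model, array weights, probe sets, threshold or replicate block.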

Additional observations from a re-analysis of the deposited data

Results flagged for a closer look

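The change in KMS-11/Cfz differed from that in KMS-34/Cfz, by the interaction term of the fit, in 29 of the 30 genes with the largest changes, SLAMF7 being the exception. The values here are the log2 change in KMS-11/Cfz minus the log2 change in KMS-34/Cfz. Among the rises they were BLVRB (1.56), PIR (1.60), CRIP1 (1.98), NXN (0.91), RBM11 (0.94), CYP39A1 (0.87), LRRN1 (1.42), GABARAPL1 (1.70), EMP3 (1.22), GBP3 (0.60), PLPP2 (1.34), KRTAP9-8 (0.99), LHX2 (0.92), B4GALNT1 (1.06) and TDO2 (0.91). Among the falls they were HLTF (-2.36), EDNRB (-1.65), PCP4 (-0.86), PRR5 (-1.97), H2AC6 (-0.71), PRSS2 (-1.14), SEMA4A (-1.10), CCR10 (-1.03), HMGCS1 (-0.51), LAIR1 (-1.27), ST6GAL2 (-0.92), SLC16A14 (-1.03), SLC27A2 (-0.89) and KRT18 (-1.02). These 30 genes were picked by the size of their change in KMS-11/Cfz, and among all 706 genes called there the term passed in 355.

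Other genes named above were called in opposite directions in the 2 derivatives. The difference was above 0 for ACADVL (1.14), ACOT13 (0.91), ANXA2 (0.85), KCNS3 (1.16) and SOX9 (1.09), and below 0 for CX3CR1 (-1.34), DUSP6 (-1.46), EDEM1 (-0.67), PHLDA1 (-1.05), RELN (-1.39), SPRED1 (-0.74) and SPRY2 (-0.85). SPRED1 belongs to this group although its call in KMS-11/Cfz ended without any 1 of the 6 arrays.

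Probe sets outside the comparison of genes also carried differences. Of 11721 probe sets that name no gene, 26 were higher and 33 lower in KMS-11/Cfz, and of 1801 that name several genes, 8 were higher and 19 lower (limma, adjusted over all probe sets).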

How the results depend on the processing

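Against 322 genes higher, 384 lower, 989 probe sets and 1274 genes with an interaction, leaving out 1 array gave 141 to 197, 187 to 219, 504 to 590 and 783 to 920. The 6 arrays alone gave 649 higher, 725 lower and 1715 probe sets, and array weights gave 921, 1113, 3023 and 4062, with a weight of 19.4 for KMS-34/Cfz replicate 2 and an estimate that did not converge fully. Plain _at probe sets, which leave 16782 genes, gave 198 higher, 246 lower and 822 interactions. An adjusted p of 0.01 gave 135, 167, 452 and 539, and a fold of at least 1.4 gave 101, 128, 539 and 734. Aligned array medians, robust eBayes and the probe set of largest variance kept each count within 1.5 times.

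With the replicate block the counts were 332, 388, 1049 and 1292. The numbers share no stated origin, same-numbered arrays correlated at -0.009, 0.129 and 0.039 in their deviations from the group means, and KMS-11/Cfz replicate 1 correlated best with another number, so they were not taken as pairs. Of 287 genes followed through the alternatives, 0 changed direction. Calls ended for 2 genes with the 6 arrays alone, 12 with the block, 22 with aligned medians, 3 with robust eBayes, 0 with array weights, 60 with the probe set of largest variance, 49 with plain probe sets and 84 to 105 with 1 array left out, and 169 held in all 6 of the latter. The causes were not tested. Centred values give no signal over background, so dim genes could not be left out, and 3 arrays a group limit the precision.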
